A study of Homo sapiens with 11 samples.

Results

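Heat shock chaperone genes were followed as a set of 10 genes chosen by name: HSPA1A, HSPA1B, HSPA8, HSPA5, HSPH1, HSP90AA1, HSP90AB1, DNAJB1, HSPB1 and HSF1. RNA values are given for 8 of them, out of 23167 Ensembl identifiers counted in each library, and histone variant peaks for all 10. HSPA1A and HSPA1B were not among the identifiers counted, so their RNA levels were not analysed here. The cells were MDA-MB231, an established human triple negative breast cancer line that grew out of a pleural effusion. In the study, the WT group (2 libraries) received the transfection reagent with no siRNA and the mH2A1.1 KD group (2 libraries) received siRNA against mH2A1.1 at 11 nM, and cells were collected on day 3. mH2A1.1 is a splice isoform of the histone variant macroH2A1, encoded by MACROH2A1. Peaks came from ChIP-seq of the same line, with 1 library for a custom polyclonal antibody against mH2A1.1 and 1 for an antibody against total mH2A1, called against an input. The comparison of KD with WT asks how the RNA of these genes differs between cells given siRNA against mH2A1.1 and cells given reagent alone. Because WT received no siRNA, loss of mH2A1.1 and delivery of an siRNA cannot be told apart in it. The peaks show where the variant lay relative to these genes.

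Chaperones bind unfolded or partly folded proteins and keep them from aggregating. HSP70 proteins clamp on exposed stretches of a client in a cycle driven by ATP, J-domain proteins such as DNAJB1 deliver the client and speed up the hydrolysis, and HSP110 proteins such as HSPH1 exchange the nucleotide to release it. HSP90 proteins take over clients close to their native fold, among them kinases and steroid receptors, and small heat shock proteins such as HSPB1 hold unfolded proteins without using ATP. HSF1 is the transcription factor that, under heat or other proteotoxic stress, forms trimers and binds heat shock elements, which are inverted repeats of the unit nGAAn. HSPA5 works in the endoplasmic reticulum (ER) and is induced by ER stress through another element. Cancer cells often keep high chaperone levels without heat. No heat or drug stress was applied to these cells as far as the labels state.

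The libraries held between 2309549 counts (KD replicate 2) and 9794674 counts (WT replicate 1). KD replicate 2 had 0 counts on chromosomes 22 and X and 30 on chromosome 21, so genes of these chromosomes were left out of the fit, and no member lies on them. VIM, CD44, KRT18, AXL and CAV1, markers of this line, summed to between 6706 and 10370 CPM (counts scaled to a common library size). Luminal breast markers, 5 of 5 listed, summed to between 18.1 and 26.9 CPM, with ESR1 and PGR at 0 in each library. Fibroblast markers (5 of 5) summed to 21.3 and 20.1 CPM in WT and 28.7 and 47.3 CPM in KD, with DCN at 0, and leukocyte markers (4 of 5) to between 0.756 and 3.58 CPM. Among the fibroblast markers, COL1A1 stood at 9.68 and 8.68 CPM in WT and at 18.3 and 33.1 CPM in KD. LUM stood at 1.37 and 1.05 CPM in WT and at 1.7 and 2.835 CPM in KD. PDGFRB stood at 9.78 and 10.3 CPM in WT and at 8.50 and 11.3 CPM in KD, and COL3A1 at 0.421 CPM or less. The part of the fibroblast markers in the results was not tested. MACROH2A1 as a whole gene, which counts both isoforms, stood at 385 and 394 CPM in WT and at 274 and 300 CPM in KD (log2 fold change -0.44, SE 0.173, adjusted p = 0.205 by edgeR's quasi-likelihood test). The gene counts do not separate the targeted isoform from the other.

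The promoters of 7 of the 9 members searched held a heat shock element by its letters. The 250 bases before each RefSeq start (build GRCh38.p14) were searched for 2 adjoining inverted units, written GAANNTTC or TTCNNGAA. Each of these equals its own reverse complement, so 1 search covers both strands, and the 2 forms overlap where 3 units alternate. Of 35116 promoters in the RefSeq table, 11.6% held either form, 1.32% held at least 2 matches and 0.441% held overlapping matches. HSPA1A and HSPA1B each held 1 match and HSPB1 held 1. DNAJB1 held 2, HSP90AA1 held 3 and HSPA8 held 4 before the start of the canonical transcript, and HSP90AB1 held 4 before a start that lies downstream of its canonical one and none before the other 2 starts. DNAJB1, too, held none before its other 2 RefSeq starts. HSPH1 held none before its RefSeq start, which lies 484 bp upstream of its canonical start. The 250 bases before the canonical start of HSPH1 were not searched. HSF1 was not searched. HSPA5 held none of the heat shock form and 1 ER stress element, CCAAT and CCACG with 9 bases between them, which 0.074% of the promoters hold on either strand. A match is a match of letters and not a measured binding site.

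The stretches that hold the elements are shown because they set the genes with an mH2A1.1 peak over the start (DNAJB1, HSP90AB1 and HSPB1) beside those without one (HSPA1A, HSPA1B, HSPA8, HSP90AA1 and HSPA5). Each is written 5′ to 3′ on the strand of the gene, up to the last base before the start or before the first annotated exon, with the elements in capitals. For HSPA8, whose element lies in an exon of longer transcripts, 30 bases around the element nearest the start are given.
DNAJB1, chr19:14518408-14518517, minus strand: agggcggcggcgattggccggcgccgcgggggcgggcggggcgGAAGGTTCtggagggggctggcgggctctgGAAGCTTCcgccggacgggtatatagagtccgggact
HSP90AB1, chr6:44247753-44247865, plus strand: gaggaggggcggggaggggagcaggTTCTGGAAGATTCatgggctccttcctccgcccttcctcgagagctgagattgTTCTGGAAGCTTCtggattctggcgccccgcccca
HSPB1, chr7:76302473-76302672, plus strand: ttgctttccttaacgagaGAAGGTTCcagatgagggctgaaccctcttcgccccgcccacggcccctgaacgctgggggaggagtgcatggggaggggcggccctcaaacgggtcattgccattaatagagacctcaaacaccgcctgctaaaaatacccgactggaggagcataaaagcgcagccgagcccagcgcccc
HSPA1A, chr6:31815413-31815542, plus strand: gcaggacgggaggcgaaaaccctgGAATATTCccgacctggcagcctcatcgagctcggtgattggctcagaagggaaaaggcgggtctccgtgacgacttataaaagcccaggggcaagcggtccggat
HSPA1B, chr6:31827608-31827737, plus strand: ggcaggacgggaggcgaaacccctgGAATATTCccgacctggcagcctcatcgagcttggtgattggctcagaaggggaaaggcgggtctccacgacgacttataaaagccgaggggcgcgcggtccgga
HSPA8, chr11:123062171-123062200, minus strand: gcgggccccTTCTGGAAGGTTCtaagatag
HSP90AA1, chr14:102087045-102087164, minus strand: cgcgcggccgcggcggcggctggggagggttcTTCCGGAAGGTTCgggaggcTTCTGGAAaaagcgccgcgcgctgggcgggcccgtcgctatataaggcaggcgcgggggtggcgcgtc
HSPA5, chr9:125241383-125241473, minus strand: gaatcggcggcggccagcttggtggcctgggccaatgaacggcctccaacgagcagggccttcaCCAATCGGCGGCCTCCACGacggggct

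The same letters stood at nearly the same place in HSPA1A and HSPA1B, where the element began 106 and 105 bases before the start. Over the 250 bases before the start the 2 genes were 94.38% identical in 249 aligned bases, and their canonical transcripts were 95.98% identical in 2391 aligned bases. Of the stretches of 50 bases in the HSPA1A transcript, 75.1% occurred in transcripts of another gene as well, chiefly HSPA1B. HSP90AB1 (19.7%), HSP90AA1 (19.1%), HSPA8 (16.8%) and HSPB1 (13.5%) shared fewer stretches, with pseudogenes such as HSP90AB3P, HSP90AA2P, HSPA8P1 and HSPB1P1, and HSPA5 shared 9.56%, DNAJB1 2.60% and HSPH1 and HSF1 0.0%. Reads from shared stretches cannot be placed at 1 gene, so the counts of genes with such stretches may be partial. Elements that overlap, as in HSP90AA1, HSP90AB1 and HSPA8, occurred in 3 members.

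Peaks of mH2A1.1 lay over the start of some of these genes, in a number near the share over all genes. A peak of mH2A1.1 reached within 500 bp of the gene start in 3 of the 10 (HSP90AB1, HSPB1 and HSPH1), against 37.8% of all 23061 counted genes with a position. Around the start of the canonical transcript there were 4, DNAJB1 being the fourth, against 38.0% of genes. Over the 10943 of these genes tested for expression, the shares were higher, 46.9% at the gene start and 47.4% at the canonical start. Total mH2A1 reached the gene start of 1 member, HSP90AA1 (21.2% of genes), and the canonical start of 1, DNAJB1 (20.6% of genes). With 1 library per antibody there is no replicate check. Peaks lay on a grid of 3000 bp, so the position of an edge is known only to that step.

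The mH2A1.1 peaks at the starts ran from a single bin to many. HSP90AB1 (chromosome 6, 44246166 to 44253888, plus strand) lay whole inside an mH2A1.1 peak of 129000 bp, chr6:44193001-44322000, that extended past the gene on both sides. HSPB1 (chromosome 7, 76302673 to 76304295, plus strand) lay whole inside a peak of 30000 bp, chr7:76296001-76326000. The canonical start of DNAJB1 (chromosome 19, 14514769 to 14560391, minus strand) lay in a peak of 96000 bp, chr19:14448001-14544000, and mH2A1.1 peaks covered 70.65% of the gene. At HSPH1 (chromosome 13, 31134973 to 31162388, minus strand) the peak was a single bin, chr13:31161001-31164000, over the start and 5.06% of the gene, and no mH2A1 peak overlapped it. Over the genes tested for expression, mH2A1.1 covered a median of 8.29% of the gene, and 9.80% of genes were covered whole.

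Of the members, the 2 inducible HSP70 genes lay farthest from a called peak of either antibody. HSPA1A (chromosome 6, 31815543 to 31817946, plus strand) lay 357543 bp from the nearest mH2A1.1 peak. HSPA1B (31827738 to 31830254, plus strand) lay 369738 bp from it, and mH2A1 peaks were farther still, at 645543 and 657738 bp. Neither gene was among those counted for RNA, and they share most of their sequence. Whether ChIP reads could be placed at these genes and around them was not tested. The distances are therefore to called peaks and do not measure a lack of the variant. HSPA8, the constitutive HSP70 of the cytosol (chromosome 11, 123057489 to 123063230, minus strand), had its nearest mH2A1.1 peak 11136 bp from the canonical start. HSPA5 (chromosome 9, 125234853 to 125241382, minus strand) had no peak at its start, but a peak of 51000 bp covered its 3′ part, 48.2% of the gene, from 3343 bp after the canonical start. HSP90AA1 (chromosome 14, 102080742 to 102139699, minus strand) has starts 52655 bp apart. An mH2A1 peak of a single bin lay at the distal start, which has no heat shock element in this window, while the nearest mH2A1.1 peak to the canonical start was 5957 bp away.

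HSF1 (chromosome 8, 144291591 to 144314720, plus strand) had mH2A1.1 close to its start but not over it: a single bin ended 604 bp before the canonical start and another lay 8397 bp inside the gene. With a window of 1000 bp it counted as a 4th member with mH2A1.1 at the gene start, against 39.7% of counted genes. Stretches where both antibodies had a peak reached the canonical start of DNAJB1 alone among the 10, against 14.2% of counted genes. They reached the gene start of none, against 14.7%.

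**Figure D1:**
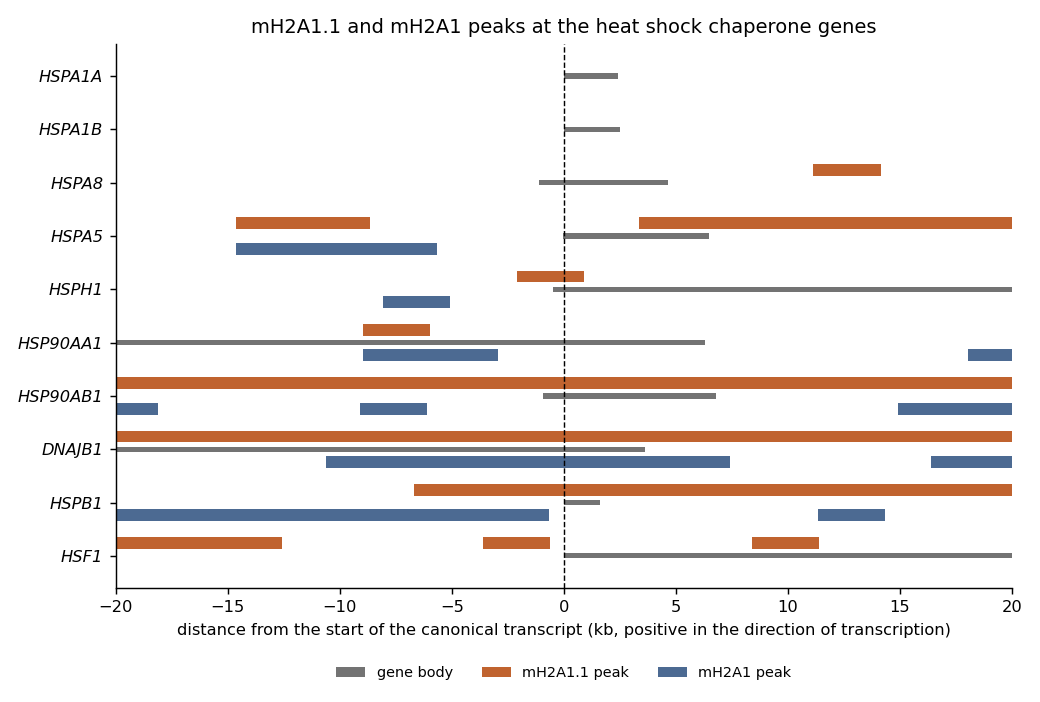
Peaks of mH2A1.1 (orange) and mH2A1 (blue) and the gene body (grey) of the 10 genes, by distance in kb from the start of the canonical transcript, within 20 kb on each side. mH2A1.1 crosses the start in HSP90AB1, DNAJB1, HSPB1 and HSPH1, and HSPA1A and HSPA1B have no peak in the window.

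In WT cells the chaperone genes were among the most abundant RNAs. HSP90AB1, the constitutive HSP90 of the cytosol, stood at 2640 and 2756 CPM in WT replicates 1 and 2, and HSP90AA1, its inducible paralog, at 2636 and 2661 CPM. With chromosomes 21, 22 and X left out, the 8 genes together took 0.957% and 0.991% of the counts in WT, and 1.025% and 0.965% in KD. Per kilobase of merged exon, the order in WT was HSP90AB1 (905 CPM per kb), HSP90AA1 (520), HSPA8 (460), HSPA5 (169), HSPB1 (111), HSPH1 (32.1), DNAJB1 (23.4) and HSF1 (17.4). The first 5 stood above 98.3% or more of the genes tested and HSF1 above 76.8%.

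The order depended in part on the length used. Per kilobase of the canonical transcript, HSPA8 (985 CPM per kb) passed HSP90AA1 (821), and DNAJB1 (85.4) passed HSPH1 (51.3). The merged exons of DNAJB1 are 8188 bp long and its canonical transcript 2242 bp. In WT, HSP90AB1 stayed highest (1056) and HSF1 lowest (43.3). On both scales the 2 WT libraries of each gene did not overlap those of its neighbour in the order. In KD, on the canonical scale, HSP90AB1 (1247 and 1362 CPM per kb) and HSPA8 (1097 and 1316) overlapped, as did HSPA5 (267 and 254) and HSPB1 (260 and 366). HSF1 (49.1 and 78.0) lay above HSPH1 (48.7 and 35.4) there, so that HSPH1 was lowest in KD. Per kilobase of merged exon in KD, HSPA8 (512.2 and 614) lay above HSP90AA1 (512.1 and 426), and HSF1 (19.8 and 31.4) overlapped HSPH1 (30.4 and 22.1).

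No heat shock chaperone gene passed the test between KD and WT. edgeR's quasi-likelihood test, with calls set at a fold change above 1.5 and an adjusted p below 0.1, called 0 of the 8 members, and it called 0.0% of the 10963 genes tested. At an unadjusted p under 0.05 there were 0 of 8 members against 23.2% of all genes. DESeq2 also called 0 of the 8, against 11.3% of the 7765 genes to which it gave an adjusted p. In each of the 8 genes the KD libraries did not overlap the WT libraries, 5 with KD higher and 3 with KD lower. Over all genes tested this held for 64.9%, and for 32.5% with KD higher. The 2 replicates of a group are not stated to be separate cultures, so these p-values measure the spread between libraries. In bulk RNA, fewer cells of a type and less RNA per cell cannot be told apart.

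Among the HSP70 machinery, the levels lay on both sides of WT. HSPA8 (ENSG00000109971) stood at 2172 and 2290 CPM in WT and at 2484 and 2979 CPM in KD. Both KD libraries lay above both WT libraries, with a mean of 2731 ± 350 against 2231 ± 83.3 CPM (SD, n = 2 each) and a fold change of 1.22 (95% interval 0.900 to 1.67, adjusted p = 0.346 by edgeR). DNAJB1 (ENSG00000132002), the J-domain partner and a classical heat shock gene, stood at 184 and 199 CPM in WT and at 218 and 274 CPM in KD. Its fold change was 1.28 (interval 0.932 to 1.76, adjusted p = 0.283 by edgeR). HSPH1 (ENSG00000120694), the exchange factor, went the other way, from 275 and 263 CPM in WT to 255 and 186 CPM in KD, with a fold change of 0.822 (interval 0.583 to 1.16, adjusted p = 0.407 by edgeR). The spread between its KD libraries was wide, at 221 ± 49.3 CPM, beside 269 ± 8.12 CPM in WT (SD, n = 2 each).

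HSPA5 (ENSG00000044574), the HSP70 of the ER, had the smallest difference of the 8. It stood at 1076 and 1129 CPM in WT and at 1046 and 997 CPM in KD, a fold change of 0.927 (interval 0.699 to 1.23, adjusted p = 0.695 by edgeR). The KD libraries lay below the WT libraries by a margin smaller than the gap between the WT libraries themselves.

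The pair of HSP90 genes of the cytosol lay on opposite sides of WT, with neither past the test. HSP90AB1 (ENSG00000096384) stood at 2640 and 2756 CPM in WT and at 3186 and 3481 CPM in KD, and HSP90AA1 (ENSG00000080824) at 2636 and 2661 CPM in WT and at 2610 and 2170 CPM in KD. The first had a fold change of 1.24 (interval 0.924 to 1.65, adjusted p = 0.306 by edgeR) and the second of 0.902 (interval 0.665 to 1.23, adjusted p = 0.623 by edgeR). In KD replicate 1, the log2 ratio of HSP90AA1 to the WT mean was -0.02, and the lower level rested on KD replicate 2 (-0.29).

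HSPB1 and HSF1 showed the highest fold changes of the 8. HSPB1 (ENSG00000106211), the small heat shock protein, stood at 172 and 189 CPM in WT and at 202 and 284 CPM in KD. HSF1 (ENSG00000185122), the transcription factor of the response, stood at 87.6 and 97.2 CPM in WT and at 105 and 166 CPM in KD. The fold changes were 1.34 for HSPB1 (interval 0.937 to 1.92, adjusted p = 0.267 by edgeR) and 1.46 for HSF1 (interval 0.967 to 2.19, adjusted p = 0.233 by edgeR). KD replicate 2 carried most of both differences, with log2 ratios to the WT mean of 0.66 and 0.85 against 0.16 and 0.18 in KD replicate 1. With KD replicate 1 left out, edgeR called both genes, HSPB1 at a log2 fold change of 0.65 (adjusted p = 7.7e-08) and HSF1 at 0.84 (adjusted p = 5.7e-10), in a fit that gives the lone KD library the spread of the WT pair. That fit called 2 of the 8 members and 4744 of 11351 genes, which is 41.8%. With KD replicate 2 left out, they stood at 0.17 and 0.19 and neither was called.

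**Figure D2:**
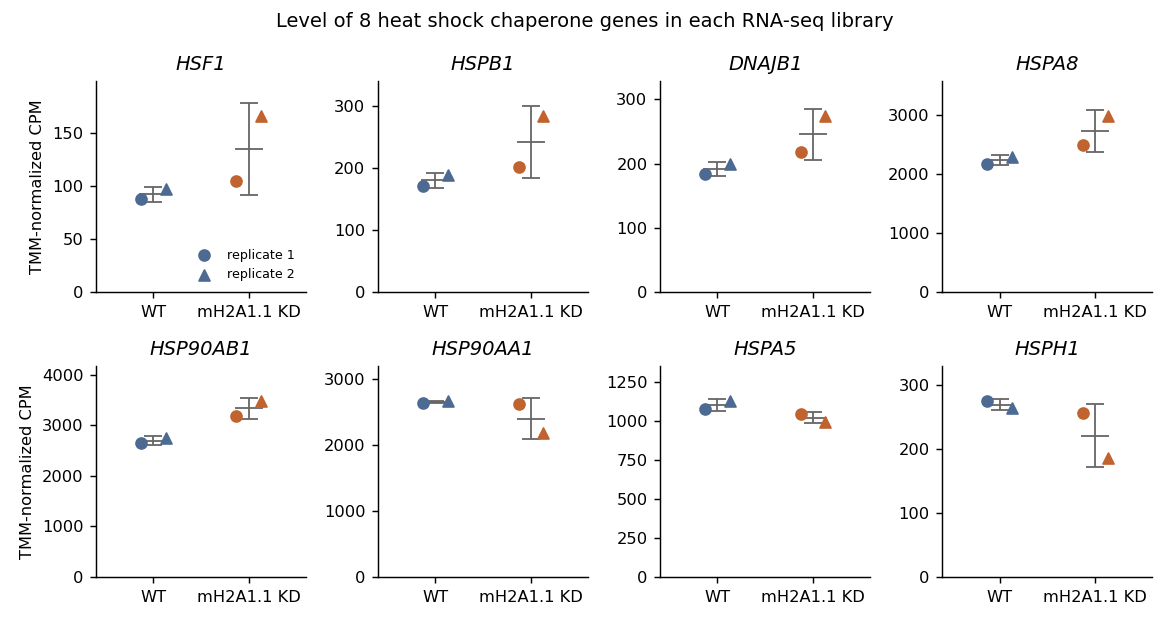
Level of the 8 genes in TMM-normalized CPM (linear axis from 0) in each RNA-seq library, WT in blue and mH2A1.1 KD in orange, with circles for replicate 1, triangles for replicate 2, and the mean and SD (n = 2) in grey. KD replicate 2 lies farther from WT than KD replicate 1 in all 8 genes, from 166 against 105 CPM in HSF1 to 186 against 255 CPM in HSPH1.

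In all 8 genes, KD replicate 2 was farther from the WT mean than KD replicate 1, and so it was in 80.1% of all genes tested. KD replicate 2 was also the library with the fewest counts, those missing on 3 chromosomes included.

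The 8 differences ran in the order of the base composition of the genes, or close to it. The 3 genes with the highest GC content in their merged exons, HSF1 (65.35%), HSPB1 (63.65%) and DNAJB1 (55.70%), had the highest log2 fold changes (0.54, 0.42 and 0.36). HSPA8 (49.27%) and HSP90AB1 (49.06%) came next with 0.29 and 0.31. HSP90AA1 (45.52%), HSPA5 (44.15%) and HSPH1 (38.09%) were the 3 below 0, at -0.15, -0.11 and -0.28. Over the 8 genes, Pearson's r between exon GC content and log2 fold change was 0.90 and Spearman's rho 0.95, and over the 10943 genes tested that have a GC value they were 0.63 and 0.67. These describe genes measured in the same 4 libraries, which are not independent replicates.

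Set against genes of like composition, the members lay on both sides of the medians. Genes under 40% GC had a median log2 fold change of -0.48 and genes of at least 60% a median of 0.50, and the bands between went up in order (-0.22, 0.04, 0.25 and 0.39). HSF1 (0.54) and HSPB1 (0.42) lay on either side of the median of their band (0.50), and DNAJB1 (0.36) just below its own (0.39). HSPA5 (-0.11 against -0.22) and HSPH1 (-0.28 against -0.48) lay above theirs, HSP90AA1 (-0.15 against 0.04) below, and HSPA8 and HSP90AB1 (0.29 and 0.31 against 0.04) above. The trend was steeper in KD replicate 2, whose band medians against the WT mean ran from -0.815 to 0.801. In KD replicate 1 they ran from -0.254 to 0.187. Spearman's rho was 0.75 over all genes and 0.98 over the 8 in KD replicate 2, and 0.43 and 0.67 in KD replicate 1.

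**Figure D3:**
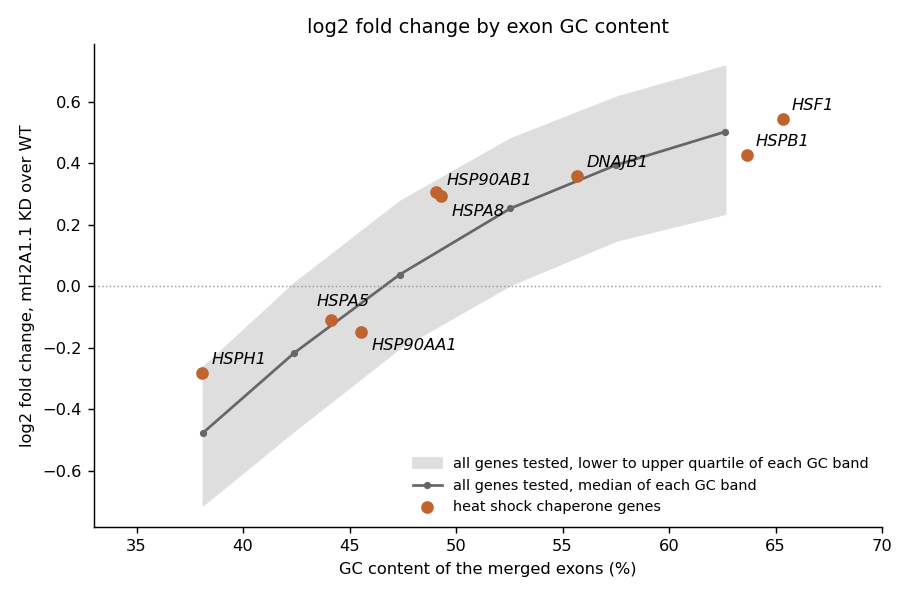
Log2 fold change of KD over WT against the GC content of the merged exons in percent, with the 8 genes as labelled points and, for all genes tested, the median (line) and quartiles (grey) of 6 bands of GC content drawn at the median GC of each band. The 8 genes rise from -0.28 in HSPH1 to 0.54 in HSF1 along the band medians, which rise from -0.48 to 0.50.

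With smooth trends on gene length and GC content removed from each library (called the correction from here on), 4 of the 8 turned direction. HSPB1 went to a log2 fold change of -0.19 (interval -0.52 to 0.14) and HSPH1 to 0.35 (interval 0.02 to 0.69, adjusted p = 0.192 by edgeR), while HSPA5 went to 0.18 and HSP90AA1 to 0.01. HSPA8 (0.27), DNAJB1 (0.21), HSP90AB1 (0.18) and HSF1 (0.18) stayed above 0. The median of the 8 went from 0.30 to 0.18, and that of all genes from 0.01 to 0.10, so 0.10 of each corrected value is shared by all genes. Relative to that shift, HSP90AA1 and HSPB1 were below and the other 6 above. No member was called after the correction, against 2.31% of the genes tested. MACROH2A1, at 45.39% GC, went from -0.44 to -0.10, with an interval of -0.57 to 0.37.

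**Figure D4:**
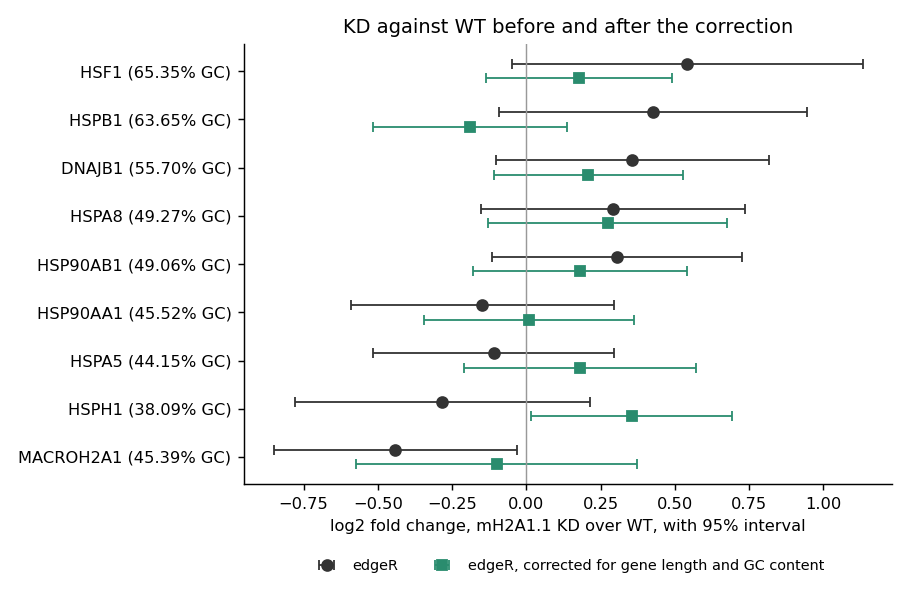
Log2 fold change of KD over WT with its 95% interval for the 8 genes, in order of exon GC content, and for MACROH2A1, by edgeR (black circles) and by edgeR with the correction for length and GC (green squares). The black values fall from 0.54 in HSF1 to -0.28 in HSPH1, and the green values run between -0.19 in HSPB1 and 0.35 in HSPH1.

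Direction and peaks did not sort the members alike. Of the 4 genes with mH2A1.1 at the canonical start, HSP90AB1, HSPB1 and DNAJB1 had positive log2 fold changes and HSPH1 a negative one. Of the 4 others with counts, HSPA8 and HSF1 were positive and HSPA5 and HSP90AA1 negative. With the correction, HSP90AB1, DNAJB1 and HSPH1 of the first 4 were positive and HSPB1 negative, and the 4 others were all positive. Relative to the corrected median of all genes (0.10), HSPB1 of the first 4 and HSP90AA1 (0.008) of the others lay below. No test was run on so few genes.

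Genes that overlap a member can share reads with it. DNAJB1 overlaps TECR on the opposite strand by 525 bp of exon, and TECR had 983 and 828 counts in WT and 636 and 350 in KD, against 1749, 1512, 1153 and 579 for DNAJB1. HSP90AA1 overlaps WDR20 by 197 bp and HSF1 overlaps DGAT1 by 137 bp, also on opposite strands. Whether the counting matched the strand of the kit is not given in the sources used here.

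The wider chaperone network was read from 9 lists of 112 genes, of which 106 had counts and 85 were tested. edgeR called none of the 85 and gave 15 an unadjusted p under 0.05, 10 of them higher in KD. DESeq2 called 5 of 79, among them CDC37, TRAP1 and SERPINH1 higher and BAG2 lower. After the correction in edgeR, 1 was called, EIF2AK3. Over all genes tested the shares were 23.2% at an unadjusted p under 0.05, 11.3% called by DESeq2 and 2.31% called after the correction. By direction, 1290 of the 10963 genes tested were higher and 1250 lower at an unadjusted p under 0.05. The list medians below are without the correction. With it, the medians of the HSP70 and HSP110, J-domain and ER lists turned positive (0.189, 0.212 and 0.163). That of the heat shock factors turned negative (-0.148), and the median of all genes was 0.099.

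Of the HSP70 and HSP110 genes outside the members, 6 were tested, 0 had an unadjusted p under 0.05, and the median log2 fold change was -0.26. HSPA9, the mitochondrial HSP70, was at -0.13 and HSPA4, an HSP110 of the cytosol, at -0.04. HSPA14 had the smallest p of the list, at -0.41 (adjusted p = 0.271 by edgeR).

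The HSP90 genes and co-chaperones held 14 tested genes with a median of 0.04, 4 higher and 1 lower at an unadjusted p under 0.05. CDC37, which brings kinases to HSP90, went from 132 and 147 CPM in WT to 191 and 412 CPM in KD. TRAP1, the mitochondrial HSP90, went from 61.5 and 70.4 CPM to 94.5 and 119 CPM. Both had KD libraries above WT, with adjusted p of 0.026 and 0.096 by DESeq2 and 0.194 each by edgeR. With the correction, DESeq2 gave CDC37 0.49 (adjusted p = 0.098) and TRAP1 0.33 (adjusted p = 0.324) on the log2 scale and called neither. CDC37 missed the call on fold change alone. HSP90B1, the HSP90 of the ER, was at -0.49 (adjusted p = 0.224 by edgeR) and the co-chaperone PTGES3 at -0.28. CDC37 (61.4% GC) and TRAP1 (56.7%) lie at the high end of composition and HSP90B1 (40.5%) at the low end.

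Of 22 J-domain genes outside the members, 2 were lower and 0 higher at an unadjusted p under 0.05, with a median of -0.06. DNAJC10, an ER reductase, was at -0.53 (adjusted p = 0.200 by edgeR), DNAJC8 at -0.08 and DNAJA1, an abundant cytosolic partner of HSPA8, at 0.16. Of 10 nucleotide exchange and other co-factors, 2 were higher and 2 lower, with a median of 0.13. BAG2 went from 105 and 102 CPM in WT to 74.6 and 51.5 CPM in KD (DESeq2 adjusted p = 0.099, edgeR adjusted p = 0.194). BAG2 has 37.0% GC, and with the correction its log2 fold change went from -0.69 to -0.07 in edgeR and to -0.16 in DESeq2 (adjusted p = 0.707), so that neither called it. BAG3, the stress-induced exchange factor, was at 0.19 and STUB1, the ubiquitin ligase CHIP, at 0.52 (adjusted p = 0.562 and 0.227 by edgeR).

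Small heat shock genes other than HSPB1 had low counts. HSPB8 alone of 8 was tested, with a mean of 6.39 ± 1.97 CPM in WT and 7.89 ± 1.13 CPM in KD (SD, n = 2 each), and CRYAB had 2, 0, 1 and 0 counts. The chaperonins and prefoldins held 13 tested genes with a median of 0.22 and 2 higher at an unadjusted p under 0.05. CCT5 and CCT6A, subunits of the ring that folds actin and tubulin, were at 0.43 and 0.05, and PFDN5, which hands clients to that ring, at 0.69 (adjusted p = 0.197 by edgeR). With the correction CCT5 went to 0.72 and CCT6A to 0.43 in edgeR, with neither called, and DESeq2 with the correction called CCT5 (0.59, adjusted p = 0.062).

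Heat shock factors and regulators other than HSF1 held 3 tested genes, none with an unadjusted p under 0.05. HSF2 was at -0.42 and HSBP1, which binds HSF1 trimers, at 0.04. Among 17 tested HSF1 target genes outside the members, 2 were higher and 0 lower at an unadjusted p under 0.05. Of all 10963 genes tested, 1290 were higher and 1250 lower at that p. The median of the list was 0.19 against 0.01 for all genes. SERPINH1, the collagen chaperone of the ER, went from 215 and 234 CPM in WT to 324 and 671 CPM in KD (log2 fold change 1.14, SE 0.332, adjusted p = 0.194 by edgeR and 0.015 by DESeq2). With the correction, DESeq2 still called SERPINH1 (0.776, adjusted p = 0.0066), while edgeR did not (0.905, adjusted p = 0.137). UBB, a polyubiquitin gene, was at 0.57 (adjusted p = 0.267 by edgeR). In SERPINH1 and UBB, KD replicate 2 carried the larger part of the difference.

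The unfolded protein response of the ER, which shares HSPA5 as its best known target, held 17 tested genes, 0 higher and 1 lower at an unadjusted p under 0.05, with a median of -0.06. CALR was at 0.53, PDIA4 at 0.16 and DNAJC3 at -0.60 (adjusted p = 0.229 for CALR and 0.208 for DNAJC3 by edgeR). EIF2AK3, the sensor kinase PERK, stood at 30.2 and 28.1 CPM in WT and 40.8 and 34.0 CPM in KD, and its log2 fold change went from 0.37 to 0.93 with the correction (adjusted p = 0.089 by edgeR). XBP1 and ATF4 lie on chromosome 22 and were not tested. They had 742 and 1366 counts in WT replicate 1, 654 and 1196 in WT replicate 2, and 461 and 857 in KD replicate 1.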

How the data were processed

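MDA-MB231 RNA-seq libraries (2 WT, 2 mH2A1.1 KD) and ChIP-seq peak lists (1 for mH2A1.1, 1 for mH2A1) were used. The ChIP input and 4 promoter capture Hi-C samples were not analysed here. Groups came from the labels. The members and gene lists were chosen with earlier results of these data known.

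The authors prepared stranded total RNA libraries, aligned reads with STAR 2.5.1 to hg38, removed reads of low mapping quality and duplicates, and counted with htseq-count at default settings. The deposited values are raw counts per gene. Duplicate removal without molecular identifiers can also remove distinct molecules of abundant genes such as these. Per the labels and the study's methods, peaks were called against the input, and the deposited values are peak positions in bp, on a grid of 3000 bp.

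Identifiers were matched to GENCODE release 44 (23061 of 23167). The 106 others, with 0.120% to 0.176% of the counts, stayed in the fit. Genes of chromosomes 21, 22 and X were left out, and counts were tested with edgeR 4.0.16 (TMM factors, filterByExpr, quasi-likelihood test, Benjamini-Hochberg adjustment over 10963 genes) in R 4.3.3, with DESeq2 1.42.0 as the study's tool. Calls were set at a fold change above 1.5 and an adjusted p below 0.1. The correction for exon length and GC used lowess trends with a span of 0.3. The tests were checked on simulated counts. A gene start had a peak when 1 reached within 500 bp. Levels are CPM on TMM-scaled libraries, and depth ran from 2309549 to 9794674 counts. The named genes were the 10 members, MACROH2A1 and, from each other list, the 2 with the highest level per kb, the gene with the smallest p and called genes. CDC37, SERPINH1, EIF2AK3, CRYAB, XBP1 and ATF4 are not named by that rule and were picked with their values in view. Sequences are from RefSeq (GRCh38.p14). Some items are not reported here.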

Additional observations from a re-analysis of the deposited data

How the results depend on the processing

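The 8 log2 fold changes were computed under 13 alternatives, and HSPA8, HSP90AB1, DNAJB1 and HSF1 kept their sign in each. With length and GC trends removed (the correction), edgeR alone, DESeq2 and edgeR with the replicate block turned HSPA5 (0.18, 0.062 and 0.17), HSPB1 (-0.19, -0.29 and -0.20) and HSPH1 (0.35, 0.24 and 0.35), and the 2 edgeR fits turned HSP90AA1 (0.008 in both). Of the other list genes, the same 3 fits turned HSPA4 (0.31, 0.20 and 0.31), HSPA9 (0.27, 0.16 and 0.27), DNAJC8 (0.12, 0.018 and 0.13), DNAJC10 (0.31, 0.20 and 0.30), BAG3 (-0.20, -0.30 and -0.20) and PDIA4 (-0.10, -0.21 and -0.10). The 2 edgeR fits turned HSP90B1 (0.062 and 0.060), and DESeq2 turned STUB1 (-0.09) and UBB (-0.019). Without KD replicate 2, HSPA4 (0.11), DNAJC8 (0.006, against -0.173 without KD replicate 1) and HSBP1 (-0.16) turned.

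Members called stayed at 0 in each alternative but 1, and ranged from 0 to 2 with 1 library left out. All genes called went from 0 to 874 with DESeq2, 945 with DESeq2 on all chromosomes (added after seeing the data), 2139 with no filter on low counts, 253 with the correction and 485 with the correction in DESeq2, and ranged from 2 to 4744 with 1 library left out. They stayed at 0 with RLE factors and with all chromosomes. Genes tested numbered 7765 with DESeq2, 9262 with DESeq2 on all chromosomes and 15068 with no filter. With the correction they numbered 10963 in edgeR and 8349 in DESeq2. List genes called went from 0 to 5, 7, 15, 1 and 4 in the same order, and ranged from 0 to 36 with 1 library left out, 36 being without KD replicate 1. The replicate numbers are not stated to mark a shared batch. With the replicate block, 2208 of 10963 genes, 0 of 8 members and 15 of 85 list genes were called. With the block and the correction, 1065, 0 and 5 of the same were called. Deviations of same-numbered libraries correlated at 0.44 over 8756 genes. The cause of these differences was not tested. The planned fit with HSPA1A and HSPA1B summed was not run.

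Members with mH2A1.1 at the gene start numbered 2 to 4, except 0 for stretches shared with mH2A1. Over counted genes the share ran from 23.8% for peaks that overlap an mH2A1 peak to 46.0% with any transcript start. It was 14.7% for the shared stretches. Members with mH2A1 went from 1 to 2 with 1000 bp (23.1% of counted genes) and to 3 with any transcript start (28.3%). HSP90AB1 over HSF1 was 52.0 per kb of exon and 24.4 per kb of canonical transcript. With 2 libraries a group, and 601 counts for HSPB1, 393 for HSPH1 and 352 for HSF1 in KD replicate 2, each member's interval reached 1.16 to 2.19 fold at its upper end.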
